A study of Mus musculus with 6 samples.

Results

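The genes described here encode 36 secreted plasma proteins, a set of carriers, clotting factors, anticoagulants, protease inhibitors and complement proteins that the yolk sac makes before the liver takes over. They were taken by name from the deposited series table, which lists 24062 gene symbols. All 36 were found there, and 28 of them had enough reads to be tested. RNA came from mouse embryo heads collected at embryonic day 8.5, of the strain C57BL/6. The embryos were wild type (Prdm15 tm1a+/+), heterozygous (Prdm15 tm1a+/-) or mutant (Prdm15 tm1a-/-). They differed by that allele alone, as far as the labels say, and no treatment is named. Each of the 3 genotypes had 2 polyA-selected libraries. Litters are not named, and the extraction text counts 2 heads for a genotype, so a p-value here speaks of the spread among these 6 libraries and no further.

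Visceral endoderm is the outer epithelium of the visceral yolk sac. It takes up maternal proteins through the receptors cubilin and megalin, and it secretes plasma proteins and lipoproteins under the control of liver-type transcription factors such as Hnf4a. The hepatocyte later makes most of the same proteins. A few members, such as Pros1, Serpinf1 and Serping1, are also made by many cells outside liver and yolk sac.

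Reads assigned to genes ranged from 29412227 to 40439234 per library, so that 3 reads, the limit used for a gene with 0 reads, equal 0.0742 to 0.102 in counts-per-million units (CPM). Such limits cover counting error only. The second wild-type sample and the first mutant sample have each other's count file attached, going by the titles in the file names, and files were assigned by those titles. Under that assignment the zeros of every file match the RPKM column of the same title (0 genes differ), while under the other 1646 genes differ for each of the pair. Kept as attached, the files gave 0 passing members by edgeR's quasi-likelihood test in all 3 comparisons, and 0 passing genes among all 15187 tested. At an unadjusted p under 0.05 there were 2, 0 and 2 members, and 318, 48 and 422 of all genes. Without these 2 libraries the log2 fold change in mutant against wild type was 11.04 for Afp, 4.34 for Cfi and 1.26 for F7. With them it was 10.01, 4.43 and 1.37. Prdm15 had 35.2 and 32.6 CPM in wild type, 28.3 and 31.8 in heterozygous and 26.6 and 32.0 in mutant libraries. Both wild-type values lay above all the others, and heterozygous and mutant values overlapped. The difference of mutant from wild type did not pass (log2 fold change -0.21, SE 0.12, adjusted p = 0.221). The neural progenitor genes Sox2 (78.4 to 146 CPM) and Nes (78.1 to 157 CPM) were present in every library.

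Promoter sequences are shown first for 4 members because they set Afp, which was high in these heads, beside its relative and neighbour Alb, which was near 0, and beside a pair of fibrinogen chains that both rose. Each line gives the 150 bases before the start that RefSeq places on GRCm38.p6, 5′ to 3′ on the gene's own strand. Capitals mark matches, on either strand, to AGGNCAAAG (a repeat bound by Hnf4a), TTGCNNAA (a C/EBP type site) or TATAAA. Afp lies at chr5:90490564-90490713 on the plus strand, Alb at chr5:90460720-90460869 on the plus strand, Fga at chr3:83026003-83026152 on the plus strand and Fgb at chr3:83049864-83050013 on the minus strand.
Afp: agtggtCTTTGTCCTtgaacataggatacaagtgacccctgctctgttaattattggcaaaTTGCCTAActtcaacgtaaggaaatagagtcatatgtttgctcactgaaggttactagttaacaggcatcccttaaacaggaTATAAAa
Alb: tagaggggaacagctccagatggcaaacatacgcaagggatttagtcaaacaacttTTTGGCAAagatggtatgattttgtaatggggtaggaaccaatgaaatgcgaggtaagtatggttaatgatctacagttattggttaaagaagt
Fga: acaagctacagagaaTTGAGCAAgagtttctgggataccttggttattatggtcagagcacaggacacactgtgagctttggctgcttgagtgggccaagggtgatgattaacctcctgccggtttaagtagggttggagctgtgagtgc
Fgb: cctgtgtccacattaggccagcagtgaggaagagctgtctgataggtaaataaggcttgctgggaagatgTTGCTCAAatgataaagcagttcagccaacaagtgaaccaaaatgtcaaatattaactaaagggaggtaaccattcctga

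Of the 36 members, 29 had a promoter entry in RefSeq's table, and the search covered 250 bases before to 50 after each start on both strands. The letters TTGCNNAA were present in 10 of the 29 genes (34.5%) and in 10.8% of all 32851 promoters, TATAAA in 7 (24.1%) against 13.6%, and AGGNCAAAG in 3 (10.3%) against 2.04%. The Foxa type letters TGTTTAC were found in 2 genes (6.90%) and in 3.65% of all promoters. Another Hnf4a type site, CAAAGTCCA, was found in 0 genes and in 0.475% of promoters. Sites for Gata factors, which act in endoderm, were searched by the letters AGATAAG and were found in 2 genes (6.90%) and in 3.04% of promoters. These matches are a description of letters and say nothing of binding.

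In mutant heads, 21 of the 36 genes rose against wild type and 0 fell, 7 did not pass the test and 8 had too few reads to be tested. The threshold was an adjusted p of 0.05 by edgeR's quasi-likelihood test. Over all 15187 genes tested, 17.1% passed as higher and 13.6% as lower. The median log2 fold change of the 28 tested members was 4.45, against -0.02 for all genes tested. DESeq2 and the likelihood ratio test also passed 0 members as lower, and 0 were lower at an unadjusted p under 0.05. Values of the 2 groups did not overlap for 23 members that were higher and 1 that was lower (Serpinf1), where 34.9% and 36.1% of all genes tested did so. In bulk RNA, fewer cells of a type and less RNA per cell cannot be told apart.

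**Figure D1:**
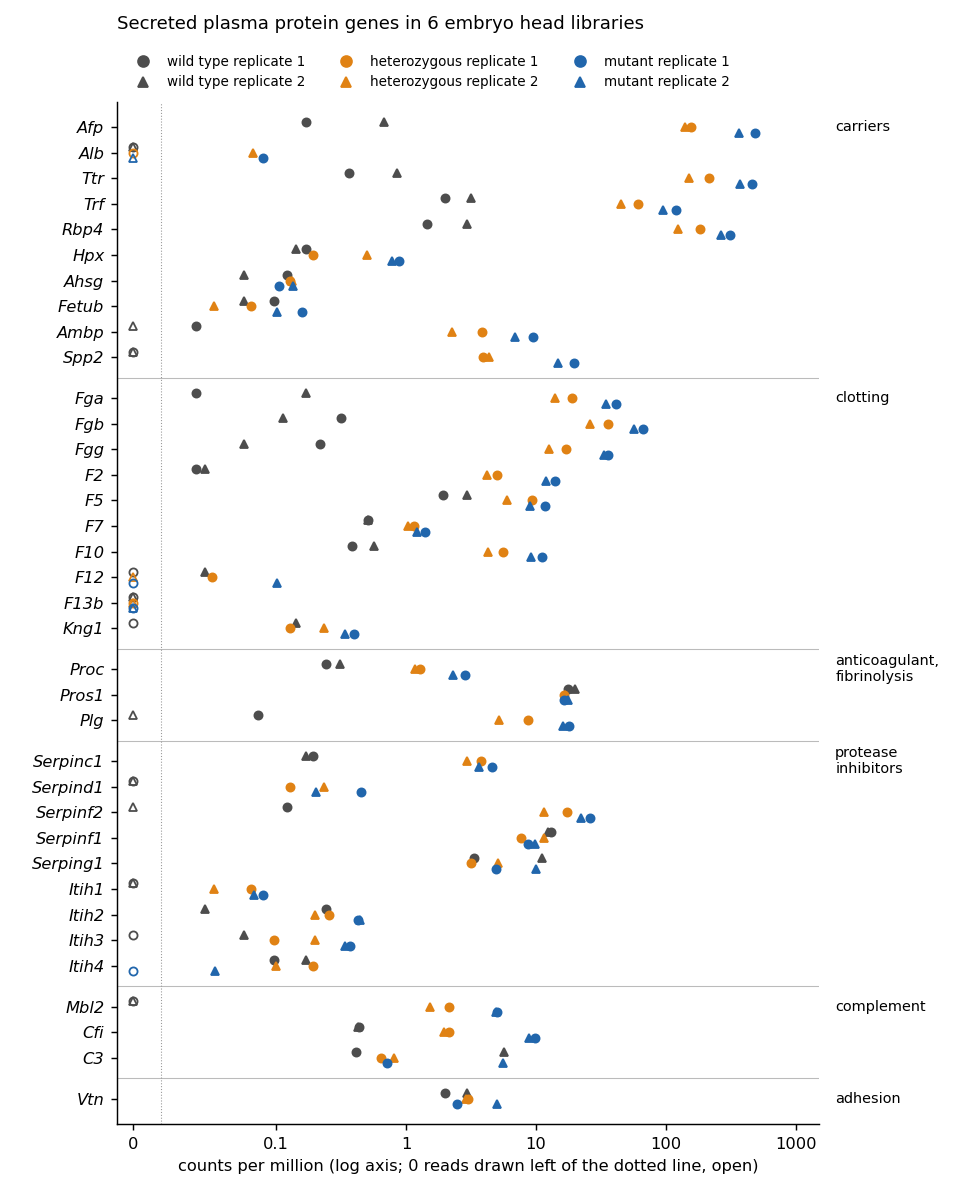
Read counts in CPM (log axis) of all 36 genes in each of the 6 libraries, grouped by the role of the protein; colour gives the genotype, circles and triangles the replicate, and open symbols left of the dotted line 0 reads. Afp, Ttr, Trf, Rbp4, Ambp, Spp2, the fibrinogen genes, F2 and F10 have wild-type values far to the left of the heterozygous and mutant ones, Alb, Ahsg, Fetub, F12 and F13b are near 0 throughout, and Pros1, Serpinf1, Serping1, C3 and Vtn have overlapping or close values.

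Of the 10 carrier genes 7 were tested and all 7 rose in mutant heads. Afp, the fetal counterpart of albumin, had 0.169 and 0.683 CPM in wild-type libraries, 155 and 140 in heterozygous ones and 484 and 365 in mutant ones. The 3 genotypes were fully separated, and mutant exceeded wild type by 10.01 on the log2 scale (SE 0.36, adjusted p = 0.000247). Ttr, which carries thyroid hormone and retinol-binding protein, had 0.363 and 0.853 CPM in wild type, 212 and 150 in heterozygous and 458 and 373 in mutant heads. Its log2 fold change was 9.45 (SE 0.36, adjusted p = 0.000247), again with no overlap between genotypes. Rbp4, the plasma carrier of retinol, had 1.45 and 2.93 CPM in wild type, 181 and 123 in heterozygous and 308 and 264 in mutant libraries, a log2 fold change of 7.06 (SE 0.35).

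Trf, transferrin, the iron carrier, was already measurable in wild type at 2.01 and 3.19 CPM. It had 60.7 and 45.3 CPM in heterozygous and 120 and 95.4 in mutant heads, a log2 fold change of 5.39 (SE 0.28, adjusted p = 0.000436). Ambp encodes a precursor that is cut into the lipocalin alpha-1-microglobulin and the protease inhibitor bikunin. It had 1 and 0 reads in the wild-type libraries, 120 and 68 in heterozygous and 355 and 201 in mutant ones. Its ratio of summed reads over library totals, mutant over wild type, was 610 with an exact 95% interval of 109 to 24125. Here and below such intervals cover counting error only, not the spread between libraries. Spp2, a secreted phosphoprotein related to the fetuins, had 0 reads in both wild-type libraries, 3.90 and 4.36 CPM in heterozygous and 19.8 and 14.9 in mutant ones. It was at least 431-fold higher in mutant than in wild type, taking 3 reads over the wild-type group as the limit, and at least 103-fold higher in heterozygous heads. Hpx, which binds free haem, stayed low, with 0.169 and 0.142 CPM in wild type, 0.193 and 0.503 in heterozygous and 0.878 and 0.784 in mutant libraries (log2 fold change 2.38, SE 0.55, adjusted p = 0.0252). This call was lost without any 1 of these wild-type and mutant libraries (adjusted p = 0.0857 to 0.115) and with a term for the libraries high in Xist.

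The remaining carriers were near 0. Alb, albumin, had 0 reads in both wild-type libraries, 0 and 2 in heterozygous and 3 and 0 in mutant ones. In GENCODE's annotation Alb and Afp lie 14.1 kb apart on chromosome 5 with no protein-coding gene between them, and in mutant replicate 1 the first had 3 reads where the second had 18173. Ahsg (fetuin-A) had 2 to 5 reads per library and Fetub (fetuin-B) 1 to 6, too few to be tested. In CPM the mutant values of Fetub (0.160 and 0.102) lay just above those of the other genotypes. Albumin transcripts were thus close to nil in heads in which those of its fetal relative were among the 3 most abundant of the set per length.

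The authors' RPKM values, read counts scaled to gene length and library depth, allow levels of different genes to be compared. Ttr (373 and 305 RPKM in the mutant libraries) led, followed by Rbp4 (246 and 213), Afp (230 and 175), Trf (51.2 and 40.9), Fgb (41.6 and 35.9), Fgg (23.4 and 21.9) and Spp2 (22.6 and 17.1). In this order the values of Rbp4 and Afp overlapped, as did those of Trf and Fgb and those of Fgg and Spp2. Ttr, Rbp4, Afp and Trf together made 84.2% and 82.8% of the summed RPKM of the 36 genes in mutant libraries and 83.2% and 81.2% in heterozygous ones. In wild type they made 11.2% and 15.9%. There Serpinf1 led with a mean of 34.1%, then Pros1 with 22.6% and Serping1 with 14.5%. The summed RPKM of the 36 genes was 21.6 and 29.9 in wild type, 506 and 378 in heterozygous and 1069 and 886 in mutant libraries.

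**Figure D2:**
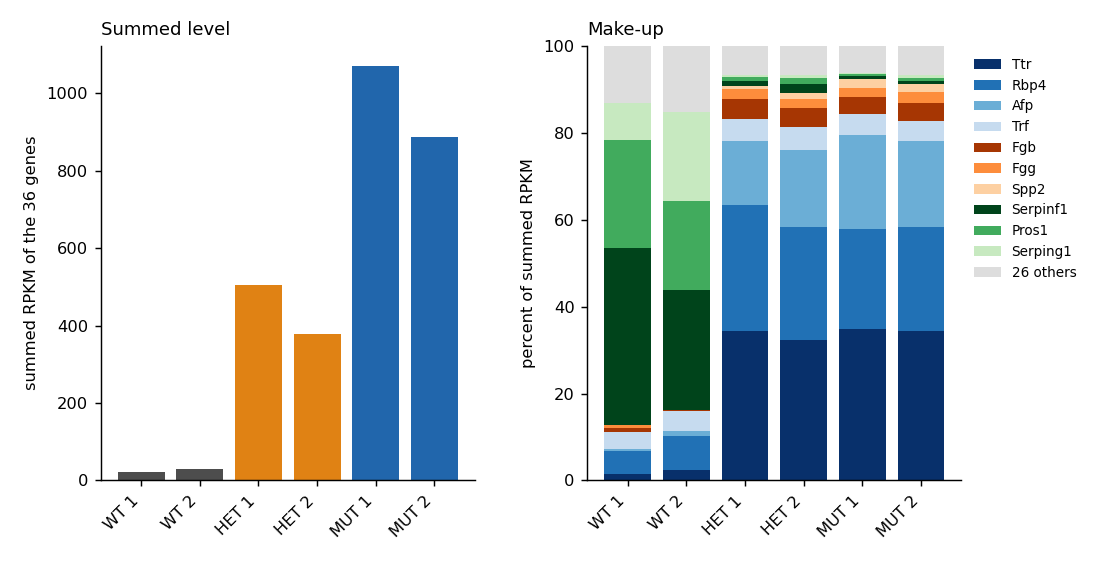
Left, summed RPKM of the 36 genes in each library (WT wild type, HET heterozygous, MUT mutant; replicates 1 and 2); right, the percent of that sum held by each of 10 genes and by the 26 others. In the 4 heterozygous and mutant libraries Ttr, Rbp4, Afp and Trf together hold 81.2% to 84.2%, while the summed RPKM differs. Single shares differ too. Afp holds 14.7% and 17.7% in heterozygous and 21.5% and 19.8% in mutant libraries. Rbp4 holds 28.9% and 26.1%, then 23.0% and 24.0%.

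Clotting factors followed the carriers. Fibrinogen, the protein that thrombin turns into fibrin, has 3 chains, and the genes of all 3 rose. Fgb, the beta chain, had 0.315 and 0.114 CPM in wild type, 35.8 and 26.2 in heterozygous and 65.9 and 56.5 in mutant libraries (log2 fold change 8.09, SE 0.34, adjusted p = 0.000259). Fga, the alpha chain, had 0.0242 and 0.171, then 18.8 and 14.1, then 41.5 and 34.8 CPM. Fgg, the gamma chain, had 0.218 and 0.0569, then 16.9 and 12.6, then 35.9 and 33.3 CPM. The log2 fold changes in mutant against wild type were 8.64 (SE 0.44) for Fga and 7.88 (SE 0.37) for Fgg. The 3 genes lie side by side on chromosome 3, with gaps of 11026 and 6513 bases.

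Per length, the beta chain stood above the alpha chain by 3.39 and 3.47 times in mutant and 4.07 and 3.96 times in heterozygous libraries. The gamma chain stood above it by 1.91 to 2.12 times in all 4. These ratios rest on the gene lengths behind the authors' RPKM. In CPM, which takes no account of length, Fga lay above Fgg in all 4. Wild-type libraries had too few fibrinogen reads for such a ratio.

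F2, prothrombin, had 1 read in each wild-type library, 157 and 125 in heterozygous and 529 and 349 in mutant libraries. The ratio of summed reads over library totals, mutant over wild type, was 481 (exact 95% interval 133 to 3981). F10, which as an active enzyme cuts prothrombin, had 0.387 and 0.569 CPM in wild type, 5.57 and 4.29 in heterozygous and 11.1 and 9.10 in mutant heads (log2 fold change 4.398, SE 0.29, adjusted p = 0.000664). F5, the cofactor of that enzyme, had 1.91 and 2.96, then 9.31 and 5.998, then 11.7 and 8.99 CPM, with heterozygous and mutant values overlapping (mutant against wild type 2.09, SE 0.32, adjusted p = 0.00771). F7, which starts clotting with tissue factor, moved least of the clotting genes that passed. It had 0.508 and 0.512 CPM in wild type, 1.16 and 1.04 in heterozygous and 1.41 and 1.23 in mutant libraries (log2 fold change 1.37, SE 0.30, adjusted p = 0.0203). The call was lost without any 1 of the 4 libraries compared (adjusted p = 0.0683 to 0.1103) and with a term for high Xist. F7 ends 1498 bases before F10 on chromosome 8.

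The other clotting members had few reads. F12, which begins the contact phase, had 0 to 3 reads per library, and F13b, the carrier subunit of the factor that crosslinks fibrin at the end of clotting, had 0 reads in all 6. Kng1, the precursor of bradykinin and a cofactor of F12, had 0 and 5 reads in wild type, 4 and 7 in heterozygous and 15 and 10 in mutant libraries (log2 fold change 2.40, SE 1.05, adjusted p = 0.137). Of clotting genes outside the set, F9, F11 and Klkb1 (plasma prekallikrein) also had 0 reads in all 6 libraries. A list of 15 such genes held 9 with enough reads, of which 3 rose in mutant heads and 0 fell. They were Proz, a protein that helps to inhibit activated factor X (0.0484 and 0.0569 CPM in wild type, 2.19 and 2.68 in heterozygous, 5.75 and 4.63 in mutant libraries), Serpina10, the inhibitor that works with it (1 and 1 reads in wild type, 33 and 23 in mutant libraries), and Vwf, the platelet tether (log2 fold change 1.48, SE 0.39). The median of the 9 was 0.64.

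Anticoagulant and fibrinolytic members were split. Plg, plasminogen, the precursor of the enzyme that dissolves fibrin, had 3 and 0 reads in wild type, 270 and 154 in heterozygous and 669 and 477 in mutant libraries, a ratio of 419 in mutant over wild type (exact 95% interval 143 to 2034). The fitted log2 fold change was 8.64, and it was 7.79 without wild-type replicate 2 and 12.12 without wild-type replicate 1, which leaves 0 wild-type reads. Proc, protein C, had 0.242 and 0.313 CPM in wild type, 1.29 and 1.17 in heterozygous and 2.82 and 2.32 in mutant heads (log2 fold change 3.20, SE 0.32, adjusted p = 0.00211). Pros1, protein S, the cofactor of protein C, did not pass, with 17.5 and 19.9 CPM in wild type, 16.5 and 16.9 in heterozygous and 16.4 and 17.5 in mutant libraries. Its log2 fold change was -0.14 (SE 0.10, adjusted p = 0.330). With libraries scaled to neural progenitor genes in place of all genes it was 0.55 (adjusted p = 0.00994), a scaling that moves the median of all genes by 0.69. Among 10 genes of fibrinolysis outside the set, 9 were tested and 2 rose, Cpb2 (0 and 0 reads in wild type, 29 and 26 in mutant libraries), which protects fibrin, and Plaur (log2 fold change 1.28, SE 0.35), the urokinase receptor, with 0 lower.

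**Figure D3:**
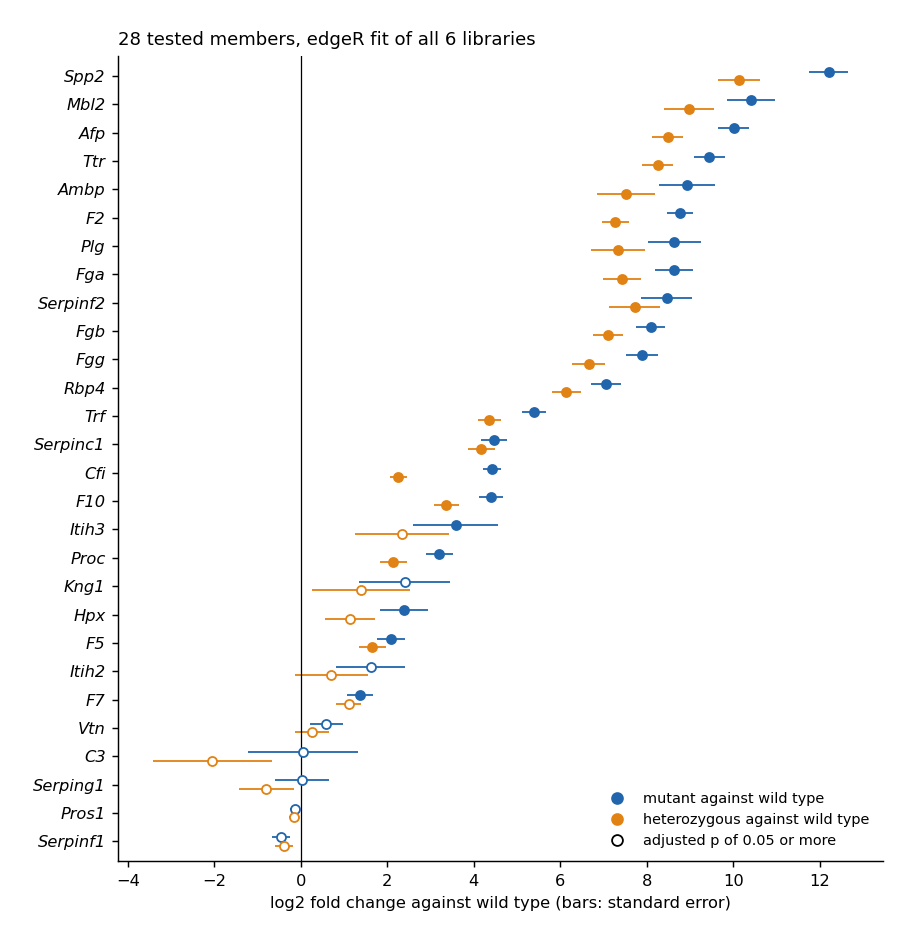
Log2 fold change of the 28 tested genes against wild type in mutant (blue) and heterozygous (orange) heads, with bars of 1 standard error from the edgeR fit of all 6 libraries; open points did not pass an adjusted p of 0.05. Genes run from Spp2 and Mbl2, which had 0 wild-type reads and whose fitted values are therefore no measure of size, down to Pros1 and Serpinf1 near or below 0.

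Protease inhibitors divided in the same way. Serpinf2, alpha-2-antiplasmin, the inhibitor of plasmin, had 0.121 and 0 CPM in wild type, 17.5 and 11.5 in heterozygous and 26.2 and 22.04 in mutant libraries (log2 fold change 8.46, SE 0.59, adjusted p = 0.000785). Serpinf1, a growth-regulating serpin whose gene lies 9.03 kb away on chromosome 11, had 13.1 and 12.3 CPM in wild type, 7.73 and 11.6 in heterozygous and 8.62 and 9.85 in mutant libraries. All 4 heterozygous and mutant values lay below both wild-type ones, and the log2 fold change of -0.46 (SE 0.21) did not pass (adjusted p = 0.145). It was 0.23 when libraries were scaled to neural progenitor genes (adjusted p = 0.264).

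Serpinc1, antithrombin, had 0.194 and 0.171 CPM in wild type, 3.77 and 2.95 in heterozygous and 4.58 and 3.65 in mutant libraries (log2 fold change 4.47, SE 0.31, adjusted p = 0.000774). Heterozygous and mutant values overlapped. Per length, F2 stood above Serpinc1 by 1.46 and 1.54 times in heterozygous and 3.34 and 3.55 times in mutant libraries. Serpind1, heparin cofactor II, was not tested, with 0 reads in both wild-type libraries, 4 and 7 in heterozygous and 17 and 6 in mutant ones. The authors' deposited table gives it a false discovery rate of 0.000234, and among the 36 genes 21 passed 0.05 there as higher in mutant heads and 0 as lower. F7, which passed here, did not pass there (false discovery rate 0.106).

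The heavy chains of the inter-alpha inhibitor family, to which bikunin from Ambp is attached, were all scarce. Itih3 had 0 and 2 reads in wild type, 3 and 6 in heterozygous and 14 and 10 in mutant libraries, a ratio of 13.2 in mutant over wild type (exact 95% interval 3.27 to 115, adjusted p = 0.0411). The call was lost in 5 of the 6 fits that left out 1 library, all but that without wild-type replicate 2 (adjusted p = 0.0420 to 0.152 over the 6), and with DESeq2 and the term for high Xist. Itih2 had 10 and 1, then 8 and 6, then 16 and 13 reads (adjusted p = 0.175). Itih1 had 0 to 3 reads per library and Itih4 0 to 6, with 4 and 6 of the latter in wild type and 0 and 1 in mutant libraries. Together the 4 genes had 0.293 and 0.296 RPKM in mutant libraries, where Ambp alone had 7.61 and 5.55.

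Members of the complement system and innate defence gave 3 patterns. Mbl2, a lectin that binds microbial sugars, had 0 reads in both wild-type libraries, 2.13 and 1.54 CPM in heterozygous and 5.002 and 4.94 in mutant ones, at least 122-fold higher in mutant and 46.1-fold in heterozygous heads. Cfi, which inactivates C3b, had 0.436 and 0.427 CPM in wild type, 2.16 and 1.98 in heterozygous and 9.82 and 8.89 in mutant libraries. Its genotypes were fully separated, with replicates close together (log2 fold change 4.43, SE 0.21, adjusted p = 0.000308).

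C3, the central complement protein, had 0.411 and 5.63 CPM in wild type, 0.644 and 0.804 in heterozygous and 0.718 and 5.55 in mutant libraries. It was high in wild-type replicate 2 and mutant replicate 2 and low in the other 4, and so did not follow genotype (log2 fold change 0.05, SE 1.27, adjusted p = 0.980). Serping1, the inhibitor of complement C1, was highest in the same libraries, with 3.34 and 11.2 CPM in wild type, 3.19 and 5.13 in heterozygous and 4.90 and 9.95 in mutant heads (0.03, SE 0.62, adjusted p = 0.975). A list of 10 genes of decidua, the maternal tissue around the embryo, was also highest in those libraries, though not in proportion. Its summed level was 28.3 and 457 CPM in wild type, 78.0 and 90.8 in heterozygous and 124 and 209 in mutant libraries. In mutant replicate 1 this sum lay above both heterozygous libraries, where C3 and Serping1 lay between them. Prl8a2, a decidual prolactin, had 3.58 and 281, then 1.03 and 5.43, then 6.44 and 66.0 CPM. A2m, a broad protease inhibitor, singled out after its values were seen, had 3.70 and 192, then 2.22 and 3.55, then 5.03 and 111 CPM. The decidual list had 0 genes higher and 0 lower in mutant against wild type, also at an unadjusted p under 0.05. Their part in the values of C3 and Serping1 was not tested. Without wild-type replicate 2 and mutant replicate 2 the log2 fold change of C3 was 0.79 (adjusted p = 0.460), and without wild-type replicate 2 and mutant replicate 1 it was 3.74 (adjusted p = 0.00647), so C3 depends on which libraries are compared.

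**Figure D4:**
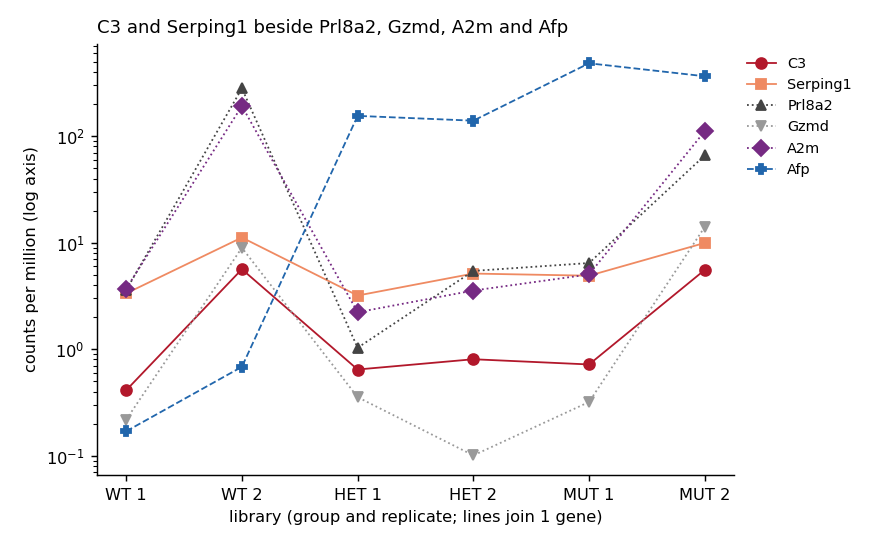
Read counts in CPM (log axis) in the 6 libraries of C3 and Serping1, of the decidual genes Prl8a2 and Gzmd, of A2m and of Afp; lines only join the points of 1 gene. C3, Serping1, Prl8a2, Gzmd and A2m peak in wild-type replicate 2 and mutant replicate 2, whereas Afp is low in both wild-type libraries and high in the other 4.

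Of 30 complement genes listed outside the set, 28 were in the files and 17 were tested, with 7 higher and 0 lower in mutant against wild type and a median log2 fold change of 0.50. Those with the smallest p were Cd59a, which blocks the membrane attack complex (3.53 and 3.56 CPM in wild type, 11.01 and 15.2 in heterozygous, 21.8 and 18.6 in mutant libraries), C8a, a chain of that complex (1 and 0 reads in wild type, 75 and 55 in mutant libraries), Colec11, a collectin (log2 fold change 4.87, SE 0.66), and Masp1, a lectin pathway protease (1.27, SE 0.19). Vtn, vitronectin, a plasma and matrix adhesion protein, did not pass, with 2.01 and 2.93 CPM in wild type, 2.995 and 2.92 in heterozygous and 2.45 and 5.01 in mutant libraries (0.59, SE 0.39, adjusted p = 0.292).

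In heterozygous heads 18 of the 36 genes were higher than in wild type and 0 lower, where 6.03% of all genes tested passed as higher and 0.533% as lower. The median log2 fold change of the 28 tested members was 3.77. DESeq2 and the likelihood ratio test likewise passed 18 as higher and 0 as lower, and 0 members were lower at an unadjusted p under 0.05. This comparison and that of mutant with wild type share the wild-type libraries, so they are not independent. Afp had log2 fold changes of 8.49 (SE 0.36) in heterozygous and 10.01 in mutant heads, Ttr 8.25 (SE 0.35) and 9.45, Fgb 7.11 (SE 0.34) and 8.09, and Serpinc1 4.17 (SE 0.30) and 4.47. Hpx, F7 and Itih3, which rose in mutant heads, did not pass in heterozygous ones, at 1.13 (adjusted p = 0.302), 1.10 (adjusted p = 0.0960) and 2.33 (adjusted p = 0.262). Among the 18, the calls for F5 (1.65, SE 0.32, adjusted p = 0.0406) and Proc (2.14, SE 0.31, adjusted p = 0.0188) were less firm. Both were lost with a term for high Xist and in some fits that left out a library, and F5 also with only the 2 groups compared.

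For the 21 genes that rose in mutant heads, mean heterozygous levels lay between those of wild type and mutant. These 21 were picked by their high mutant values, which tilts any comparison with them towards mutant. Among members outside the 21, the heterozygous means of C3, Serping1 and Pros1 lay below those of both other genotypes. Among the 21 genes that rose in mutant heads, the mean heterozygous RPKM was a median of 43.3% of the mutant mean, from 22.2% for Cfi and 23.9% for Spp2 through 34.9% for Afp, 43.8% for Ttr and 53.3% for Rbp4 to 82.1% for Serpinc1 and 83.7% for F7. Both mutant libraries were above both heterozygous ones for 19 of the 21, all but F5 and Serpinc1, where 27.6% of all genes tested did so. Mutant replicate 1 exceeded mutant replicate 2 in all 21, and heterozygous replicate 1 exceeded heterozygous replicate 2 in 18, all but Hpx, Spp2 and Itih3. Libraries of 1 genotype thus differed in the same direction across most of the 21 genes.

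**Figure D5:**
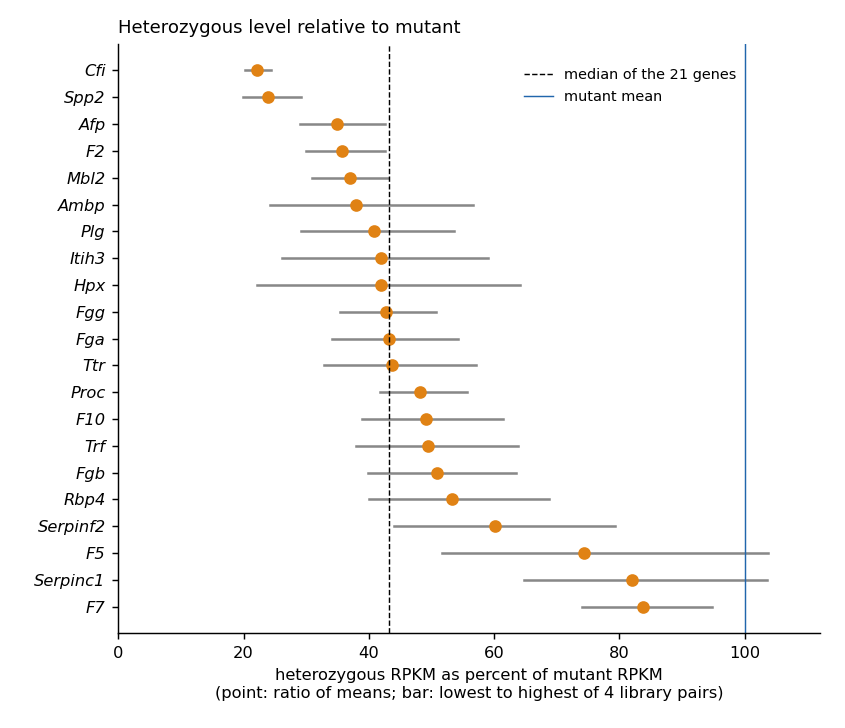
Heterozygous RPKM as a percent of mutant RPKM for the 21 genes that rose in mutant heads; points are ratios of group means and bars run from the lowest to the highest of the 4 pairs of libraries. The median is 43.3%, Cfi and Spp2 are lowest at 22.2% and 23.9%, and the bars of F5 and Serpinc1 reach past 100.

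In mutant against heterozygous heads 3 of the 36 genes passed as higher and 0 as lower, where 0.0724% of all genes tested passed as higher and 0.362% as lower. They were Cfi (log2 fold change 2.18, SE 0.18, adjusted p = 0.0172), F2 (1.49, SE 0.18, adjusted p = 0.0491) and Spp2 (2.07, SE 0.21, adjusted p = 0.04998, just inside the threshold). The median over the 28 tested members was 1.05 against 0.0036 for all genes, and the groups did not overlap for 21 members, all higher, against 27.6% of genes. At an unadjusted p under 0.05, 15 members were higher and 0 lower, where 3228 of all 15187 genes were under it in either direction. DESeq2 passed 11 members and the likelihood ratio test 13, where they passed 699 and 375 of all genes as higher. Xist, the RNA that coats the inactive X chromosome, was high in both mutant libraries (1274 and 1100 CPM) and near 0 in both heterozygous ones (0.354 and 0.268), while the wild-type pair was split (0.266 and 1314). With a term for high Xist 0 members passed (6 at an unadjusted p under 0.05, all higher). Over all 15187 genes that fit passed 0 as higher and 4 as lower. Between these groups Xist status and genotype coincide, so the term rests on the wild-type pair alone. The part of Xist status cannot be told apart from genotype here and was not tested. None of the 3 calls held without any 1 of the 4 heterozygous and mutant libraries, in fits that leave 1 library in a group. The log2 fold changes in those fits were 2.10 to 2.23 for Cfi, 1.35 to 1.62 for F2 and 1.85 to 2.25 for Spp2.

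Other genes of the visceral endoderm moved with the members. A list of 20, chosen to hold none of the 36, had a summed level of 306 and 310 CPM in wild type, 3300 and 2395 in heterozygous and 5555 and 4535 in mutant libraries. All 20 rose in mutant and 18 in heterozygous heads, with medians of 7.19 and 6.11, where 17.1% and 6.03% of all genes tested passed as higher. The list was chosen with earlier results of these data known, so its counts are a description and no independent test. Hnf4a had 0.218 and 0.284 CPM in wild type, 61.8 and 45.3 in heterozygous and 98.8 and 79.0 in mutant libraries. Apoa4, an apolipoprotein, had 0 and 0.114, then 76.4 and 65.0, then 184 and 147 CPM, and Slc2a2, a glucose transporter, 0.0242 and 0.0569, then 43.1 and 31.1, then 58.8 and 49.98. Most of the wild-type sum was Lrp2 (149 and 154 CPM) and Dab2 (134 and 125), which have other sites of expression. Relative to mutant replicate 1, the median of the 21 members was 84.2% in mutant replicate 2, 46.4% and 37.7% in the heterozygous libraries and 0.471% and 0.411% in the wild-type ones. The median of the 20 visceral endoderm genes, taken the same way, was 81.1% in mutant replicate 2, 56.2% and 43.3% in the heterozygous libraries and 0.675% and 0.574% in the wild-type ones. How far an amount of visceral endoderm in the dissected heads sets the members' levels was not tested, and in these libraries it cannot be told apart from genotype.

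With all 6 libraries scaled to the sum of those 20 genes, Lrp2 and Dab2 included, the members were compared between mutant and heterozygous heads relative to that sum. The scaled wild-type libraries took part in the estimate of the spread. Under this scaling, which moves the median of all genes by -0.85, 0.968% of genes tested passed as higher in mutant and 69.0% as lower. Afp (log2 difference 0.67, SE 0.27, adjusted p = 0.0234), Spp2 (1.19, SE 0.48, adjusted p = 0.0211), Cfi (1.33, SE 0.51, adjusted p = 0.0163) and C3 (1.35, SE 0.48, adjusted p = 0.0108) passed as higher. For C3 this rests on mutant replicate 2, since in CPM mutant replicate 1 lay between the heterozygous libraries, and scaled to all genes the difference without mutant replicate 2 was -0.02 (adjusted p = 0.997). Pros1 (-0.82, SE 0.32, adjusted p = 0.0171) and Serpinf1 (-0.94, SE 0.34, adjusted p = 0.0123) passed as lower, by about the amount that the scaling moves the median gene. The other 22 tested members did not pass, among them Ttr (0.38, SE 0.27), Rbp4 (0.10, SE 0.28), Trf (0.19, SE 0.33), Fgb (0.16, SE 0.37) and Serpinf2 (-0.07, SE 0.42).

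Markers of other tissues moved less. Of 13 enzymes of the later liver, 4 were tested and Otc, of the urea cycle, alone passed as higher, with 0 reads in both wild-type libraries, 13 and 14 in heterozygous and 40 and 29 in mutant ones (the likelihood ratio test passed 3), while Tat, Hpd, Cyp3a11 and Cyp7a1 had 0 reads in all 6 libraries. Of 11 parietal endoderm genes 6 rose and 1 fell, with a summed level of 1424 and 1740 CPM in wild type and 2232 and 2198 in mutant libraries. The endothelial list had 1 of 10 higher (303 to 479 CPM), the macrophage list 2 of 7 tested (8.66 to 25.5 CPM, with Cx3cr1 and Emr1 at no more than 0.341 CPM), and the platelet list 1 of 3 tested (4.65 to 11.3 CPM, with Pf4 at 0 to 0.102). The mesenchymal list had 8 of 11 higher, and the trophoblast list 0 higher and 1 lower of 6 tested (2 higher at an unadjusted p under 0.05, and 1 by DESeq2 and by the likelihood ratio test). The erythroid list had 0 higher and 1 lower of 9 tested, with sums of 172 and 255 CPM in wild type, 6.31 and 239 in heterozygous and 33.1 and 12.6 in mutant libraries and a median log2 fold change of -2.56. The neural progenitor list had 0 higher and 11 lower of 15, with sums of 1276 and 1229 CPM in wild type, 1004 and 1153 in heterozygous and 749 and 804 in mutant libraries. For the erythroid and neural lists, DESeq2, the likelihood ratio test and the unadjusted p also gave 0 genes higher.

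Other plasma carriers and the receptors and processing enzymes of plasma proteins were measured beside the set. Of 32 further plasma carriers 14 were tested, 6 rose and 1 fell, with a median log2 fold change of 0.21. Those with the smallest p were Gc, the vitamin D carrier (1 and 0 reads in wild type, 87 and 63 in mutant libraries), the insulin-like growth factor Igf2 (log2 fold change 1.29, SE 0.17), Serpina1b, an alpha-1-antitrypsin (3 and 0 reads in wild type, 75 and 51 in mutant libraries), and Igfbp1 (3.09, SE 0.46). Cp, the copper carrier ceruloplasmin, fell (1.55 and 1.11 CPM in wild type, 0.0322 and 0.402 in heterozygous, 0.0266 and 0.102 in mutant libraries). Apoh and Apcs, liver products in the adult, had 1 read or none in each library. Serpina1 genes are near-identical copies, so their separate counts are uncertain.

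Of 12 genes that process or export secreted proteins, 6 rose and 0 fell, with a median of 0.22. Furin, which cuts the propeptides of clotting factors, had 41.9 and 42.8 CPM in wild type, 104 and 90.8 in heterozygous and 154 and 127 in mutant libraries (1.73, SE 0.11, adjusted p = 0.000664). Ggcx, the vitamin K-dependent carboxylase that prothrombin, F7, F10, protein C and protein S all need, rose by a log2 fold change of 0.78 (SE 0.10, adjusted p = 0.00414), and Vkorc1, which recycles vitamin K, by 1.34 (SE 0.10). Of 26 receptors 23 were tested, with 9 higher, 1 lower and a median of 0.29. Cubn, cubilin, which takes up transferrin and albumin, had 0.992 and 1.93 CPM in wild type, 661 and 458 in heterozygous and 949 and 766 in mutant libraries. Fcgrt, which salvages albumin and immunoglobulin, rose by 2.90 (SE 0.31). Tfrc, the transferrin receptor, fell by 0.40 (SE 0.07, adjusted p = 0.0114), from 174 and 165 CPM in wild type to 121 and 136 in mutant libraries. F2r, the thrombin receptor, did not pass, with 147 to 163 CPM in all 6 libraries. Where 0 genes of clotting, fibrinolysis, complement or processing are given as lower, 0 were lower by DESeq2, by the likelihood ratio test and at an unadjusted p under 0.05.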

How the data were processed

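The data are stranded read pairs from polyA-selected RNA, per the labels' protocols. Per the submitters' processing notes, reads were trimmed with Trim Galore 0.4.0, aligned with TopHat2 2.0.11 to mm10 and counted with HTSeq 0.6.1p2. Which annotation and strand option the counting took is not given, so overlapping genes are uncertain. Raw counts per gene were deposited by the authors, 1 file a library; their 5 summary lines were left out here (8.93% to 10.5% of read pairs lay in no feature). A table the authors deposited holds RPKM, a log2 fold change, a log2 mean CPM, the score of a likelihood ratio test, and its p-values and false discovery rates.

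Files were assigned by the title in their name; zeros and ratios of count to RPKM (tolerance 0.1%) were checked. The test was the quasi-likelihood F-test of edgeR 4.0.16 in R 4.3.3, with TMM scaling and filterByExpr, on all 6 libraries together (3 residual degrees of freedom). P-values were adjusted over 15187 genes by Benjamini-Hochberg at 0.05. An SE is the size of a log2 fold change over the root of its F. Single-gene CPM and list sums use TMM library sizes. The 3-read limits and read ratios use library totals. The fits were tested on simulated data. Alternatives used DESeq2 1.42.0, the likelihood ratio test, other scalings, filters and sample sets. Positions come from GENCODE on GRCm38 and promoters from RefSeq on GRCm38.p6.

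The members and gene lists were chosen with earlier results of these data known. All members are named. Of each other list, at most 4 genes with the smallest p in mutant against wild type are named, plus defining markers near 0; other names were chosen after their values were seen, for their bearing on a member.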

Additional observations from a re-analysis of the deposited data

How the results depend on the processing

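With each file kept under the sample it is attached to, 0 members and 0 of all 15187 genes tested passed in each comparison. Among the members' log2 fold changes, 35 values changed sign. For mutant against wild type they became -0.40 for Afp, -0.29 for Ttr, -0.31 for Trf, -0.21 for Rbp4, -0.19 for Hpx, -0.47 for Ambp, -0.41 for Spp2, -0.25 for Fga, -0.23 for Fgb, -0.12 for Fgg, -0.24 for F2, -0.19 for F5, -0.14 for F7, -0.25 for F10, -0.22 for Proc, -0.14 for Plg, -0.33 for Serpinc1, -0.26 for Serpinf2, -0.021 for Mbl2 and -0.14 for Cfi. For heterozygous against wild type they became -0.71 for Afp, -0.34 for Ttr, -0.21 for Trf, -0.026 for Rbp4, -0.62 for Ambp, -1.26 for Spp2, -0.34 for Fga, -0.096 for Fgb, -0.29 for Fgg, -0.61 for F2, -0.21 for F10, -0.31 for Proc, -0.37 for Plg, -0.44 for Mbl2 and -1.31 for Cfi. That assignment puts 1 library of each title in the other group.

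Under the other alternatives that keep both libraries of each group, 19 to 25 members were higher in mutant than in wild type. In heterozygous against wild type 16 to 18 were higher, and 0 were lower in either comparison. The 25 came with libraries scaled to neural progenitor genes, where 10614 of all 15187 genes passed as higher. Leaving out a replicate gave 18 to 21 and 16 to 18. For mutant against heterozygous the count of 3 became 11 with DESeq2, 13 with the likelihood ratio test, 5 with only the 2 groups compared, 18 with libraries scaled to neural progenitor genes, 0 with a term for the 3 libraries high in Xist, 7 without wild-type replicate 2 and mutant replicate 2, and 0 to 4 with a replicate left out. Of all 15187 genes, 11 passed as higher in mutant against heterozygous heads in the main fit. With the neural progenitor scaling 7686 did, and the median of all genes moved by 0.47. The count was 699 with DESeq2, 375 with the likelihood ratio test and 0 with the Xist term. With only the 2 groups compared it was 48 of 14655 tested. Scaling to visceral endoderm genes added 2 members as lower, where 10484 of all 15187 genes passed as lower. The cause of these differences was not tested. Calls for Hpx and F7 in mutant against wild type were lost without any 1 of the 4 libraries compared, and that for Itih3 in 5 of 6 such fits. Fold sizes of genes with few wild-type reads rest on single libraries: without wild-type replicate 1 or 2, the log2 fold change was 9.29 or 11.24 for Afp, 12.12 or 7.79 for Plg and 12.63 or 7.58 for Serpinf2. The 2 fits without a pair of libraries were chosen after seeing the data. No paired analysis was possible because the labels give no replicate numbers that link libraries across genotypes.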
